A study of Drosophila melanogaster with 6 samples.

Results

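The sex peptide network of Drosophila melanogaster is a set of seminal proteins, made by the male, that act with sex peptide. The 7 genes described here are CG9997, CG17575, lectin-46Ca, lectin-46Cb, CG30488 (now antares, antr), CG14061 (now aquarius, aqrs) and CG12558 (now intrepid, intr). They were chosen by name, with earlier results of these data known. Each matched 1 row of the deposited table of 13035 genes, and all 7 were tested. RNA of whole adult males on day 6 of adulthood was sequenced in 6 libraries. All flies had the genotype yw, hsFLP;; dERR[conditional] / dERR2, so that the control flies too carried a dERR2 allele over the conditional one. In the 3 mutant libraries, labelled dERR-/-, a heat treatment of 1 h on days 5 and 6 after egg laying (AEL) had switched on hsFLP, a recombinase under a heat shock promoter. The 3 control libraries came from unheated flies, so that the loss of the estrogen-related receptor (ERR) and the earlier heat treatment cannot be told apart. The labels do not say how many flies went into a library, and p-values measure the spread between these libraries, which may be technical.

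During mating, sex peptide passes to the female with the seminal fluid and changes her behaviour, reducing her readiness to mate again and raising egg laying. The network proteins are known to be needed for sex peptide to bind to sperm, which the female stores and from which the peptide is slowly released, so that the response lasts. The male accessory gland, which produces most seminal proteins, is built of main cells and secondary cells. In whole-fly RNA, fewer cells of a type and less RNA per cell cannot be told apart.

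Libraries held 13987814 to 16102936 reads assigned to genes, and values are normalized counts, that is, reads divided by a size factor of the library. ERR had 373, 497 and 539 normalized counts in the control and 112, 119 and 107 in the mutant libraries. Testis and sperm genes were strongly present in all libraries, with a summed level of 9816 to 12084 CPM (reads per 1e6 reads) in control and 12479 to 14375 CPM in mutant libraries. Of 13 yolk, eggshell and oocyte genes listed as a check of the male label, 6 were found in the table, at a summed level of 12.7 to 20.0 CPM.

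All 7 members had a negative log2 change, as did 6455 of all 13035 genes, and 3 of the members passed the test. CG14061, CG9997 and CG30488 fell by 1.38- to 1.51-fold in the mutant, with all 3 mutant libraries below all 3 control libraries, as was the case for 16.9% of all genes. CG17575, lectin-46Ca and lectin-46Cb, which were among the more abundant members in control flies, did not pass the test, and neither did CG12558. In all, 3 of 7 members were called lower and 0 were called higher by limma at an adjusted p under 0.05. Over all 13035 genes, 9.47% were called lower, and 4.73% higher. The members' median log2 change was -0.27, against 0.00 for all genes, and it was -0.14 without control replicate 2 and -0.41 without control replicate 3. The authors' deposited table gave the same 3 calls among the members, where it called 9.04% of genes lower.

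**Figure D1:**
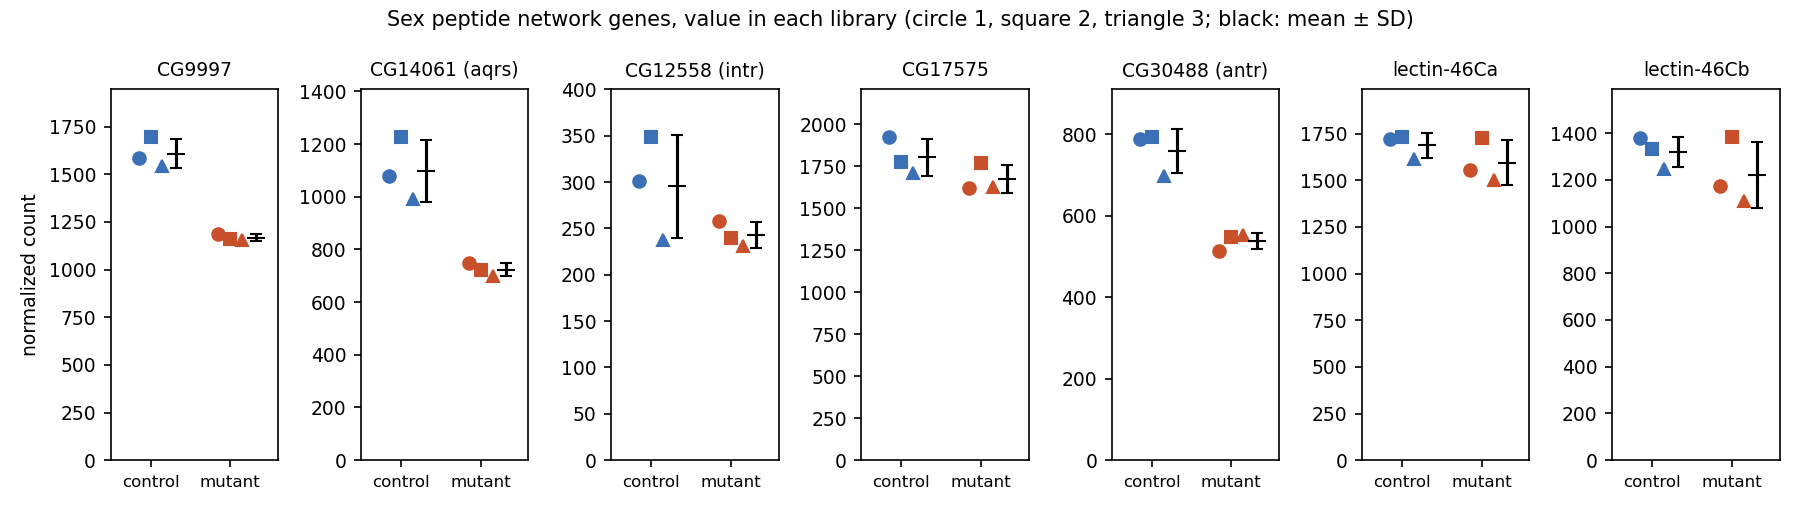
Normalized count of each member in each library; the y axis starts at 0 in each panel, symbols mark the library's number in its group, and the black bar gives mean ± SD of 3 libraries. In CG9997, CG14061 and CG30488 all mutant libraries lie below all control libraries, and in the other 4 genes the groups overlap.

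The serine peptidase homologs, proteins with a peptidase fold that are predicted to lack catalytic activity, were represented by 3 members, all on chromosome arm 3R. CG9997 (FBgn0039597; 24581671 to 24582701, dm3) is known to be cleaved in the female after mating. Its normalized counts were 1584, 1694 and 1546 in the control and 1187, 1161 and 1157 in the mutant libraries. The lowest control library stood 359 normalized counts above the highest mutant library, and the mutant libraries differed little among themselves. Means were 1608 ± 76.9 and 1168 ± 16.7 (SD, n = 3 each), which gave a change of -0.46 ± 0.07 (SE) on the log2(normalized count + 1) scale, with an adjusted p of 9.93e-04 in limma.

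CG14061 (FBgn0039598; 24582720 to 24583956, dm3), which lies next to CG9997 on the same strand with 18 bases between them, fell the most of the members. It had 1080, 1225 and 992 normalized counts in control and 749, 722 and 701 in mutant libraries. Again the groups did not overlap, and the control libraries were more spread out than the mutant libraries. Means were 1099 ± 118 and 724 ± 24.1 (SD, n = 3 each), and the log2 change was -0.60 ± 0.09 (SE), with an adjusted p of 8.56e-04 in limma. This is 1.51-fold lower with a 95% interval of 1.32- to 1.73-fold. Across all genes, 6.54% had a log2 change as low or lower.

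CG12558 (FBgn0039599; 24616243 to 24617183, dm3) lies further along the same arm on the opposite strand and was the least abundant member. It had 301, 348 and 238 normalized counts in control and 258, 240 and 231 in mutant libraries. Control library 3 fell within the range of the mutant libraries, and 1 mutant library lay below all controls. The log2 change was -0.27 ± 0.13 (SE; adjusted p = 0.225, limma), with a 95% interval from -0.56 to 0.02 that takes in both no change and a fall as large as that of CG9997. Without control replicate 2 the log2 change was -0.14 (adjusted p = 0.536, limma), and without control replicate 3 it was -0.41 (adjusted p = 5.07e-02, limma). The coefficient of variation was 18.8% in control and 5.78% in mutant libraries, where counting error at their depth is 5.79% and 6.38%.

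Of the cysteine-rich secretory proteins (CRISPs, which carry a CAP domain), 2 belong to the network and are neighbours on chromosome arm 2R, on the same strand and 250 bases apart. CG30488 (FBgn0050488; 8734352 to 8735509, dm3) had 788, 792 and 697 normalized counts in control and 514, 548 and 551 in mutant libraries. All mutant libraries were lower than all control libraries, with a gap of 145 normalized counts. Means were 759 ± 53.7 and 538 ± 20.7 (SD, n = 3 each), and the log2 change was -0.49 ± 0.08 (SE), with an adjusted p of 1.73e-03 in limma.

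CG17575 (FBgn0250842; 8733048 to 8734101, dm3) had 1921, 1776 and 1708 normalized counts in control and 1623, 1769 and 1624 in mutant libraries. Mutant library 2 lay between the control libraries, and the other mutant libraries lay below them. The log2 change was -0.11 ± 0.07 (SE; adjusted p = 0.408, limma), and its 95% interval, -0.27 to 0.06, ends short of the change measured for its neighbour. A fall of up to 1.21-fold is within that interval. Without control replicate 1 the log2 change was -0.06.

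Lectin-46Ca and lectin-46Cb encode C-type lectins, proteins that bind sugars, and stand beside each other on chromosome arm 2R, 698 bases apart in the deposited coordinates. Lectin-46Ca (FBgn0040093; 5704804 to 5706040, dm3) had 1720, 1730 and 1612 normalized counts in control and 1554, 1729 and 1502 in mutant libraries. Lectin-46Cb (FBgn0040092; 5700866 to 5704105, dm3) had 1378, 1330 and 1248 in control and 1173, 1381 and 1111 in mutant libraries. In both lectins mutant library 2 was as high as the control libraries while mutant libraries 1 and 3 lay below all of them. The log2 changes were -0.08 ± 0.08 (SE; 95% interval -0.25 to 0.09; adjusted p = 0.548, limma) for lectin-46Ca and -0.12 ± 0.09 (SE; 95% interval -0.31 to 0.08; adjusted p = 0.466, limma) for lectin-46Cb. Without mutant replicate 2 they were -0.14 and -0.21 (adjusted p = 0.296 and 0.139, limma), and without mutant replicate 3 they were -0.0407 and -0.0499.

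The lectin genes lie within the deposited span of CG1648, on the opposite strand. CG1648 had 4620 to 5470 normalized counts in control and 4797 to 5698 in mutant libraries. The lectins and CG1648 share 0 exon bases in the newer annotation (BDGP6), but there the lectin-46Cb gene is shorter than in the deposited coordinates. The sources used here do not say whether the authors' counting used strand, and the share of the lectins' values that could come from CG1648 was not tested.

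**Figure D2:**
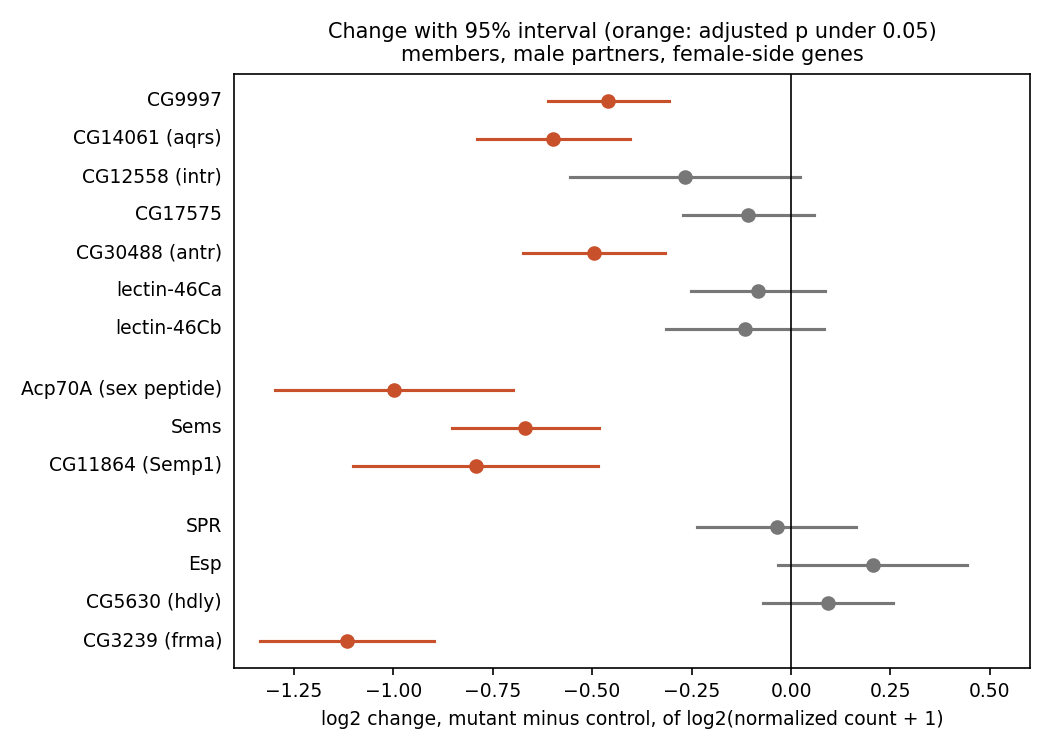
Log2 change of mutant against control with its 95% interval from limma, for the 7 members, for 3 male partner genes and for 4 genes known from the female side; orange marks an adjusted p under 0.05. Changes of called members run from -0.60 to -0.46, and sex peptide itself (Acp70A) is at -0.998.

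Ratios within a library hardly depend on how libraries are scaled, and they compare members directly. The log2 ratio of CG30488 to CG17575 was -1.29, -1.16 and -1.29 in control and -1.66, -1.69 and -1.56 in mutant libraries. All mutant ratios were lower, by 0.39 on average. For CG14061 over CG9997 the groups were only narrowly apart, with the lowest control ratio at -0.64 and the highest mutant ratio at -0.66. Its mean ratio went from -0.55 ± 0.09 to -0.69 ± 0.03 (SD, n = 3 each). The mean ratio of the serine peptidase homologs to the lectins went from -0.89 ± 0.12 to -1.24 ± 0.14 (SD, n = 3 each), again without overlap. By contrast, the ratio of lectin-46Ca to lectin-46Cb averaged 0.36 ± 0.03 in control and 0.39 ± 0.06 in mutant libraries, with overlap, and that of CG12558 to CG9997 also overlapped. The ratio of the members' median to that of the Acp and Mst57D genes went from -1.77 ± 0.13 to -0.98 ± 0.10 (log2; SD, n = 3 each), without overlap. Among 7 such ratios, chosen after values were seen, those without overlap had an exact permutation p of 0.1 (two-sided; 0.14 with Benjamini-Hochberg adjustment), the smallest that 3 against 3 libraries allow, so that this design cannot reach 0.05.

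**Figure D3:**
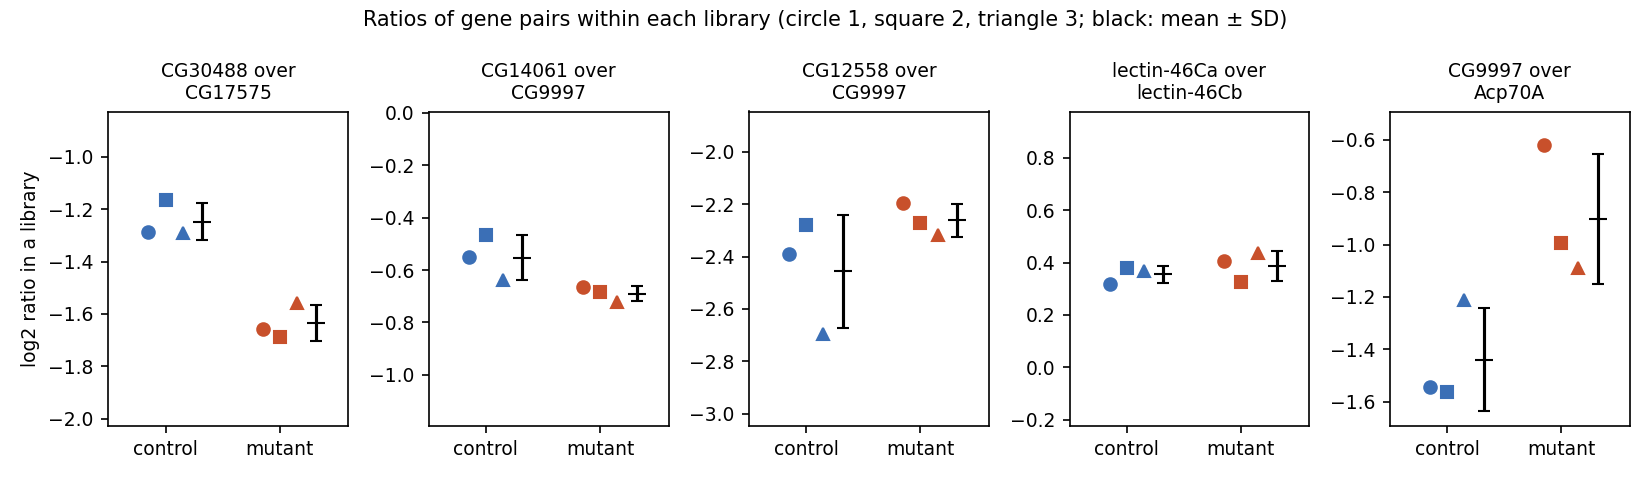
Log2 ratio of gene pairs within each library, with mean ± SD of 3 libraries in black; every panel spans the same range on the log2 scale around its own centre. The control and mutant libraries separate for CG30488 over CG17575, CG9997 over Acp70A and, narrowly, CG14061 over CG9997, and overlap for the other 2 pairs.

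Levels of the members were compared per kilobase of coding length in BDGP6, which leaves out the untranslated parts of the exons. The effect of those parts on the order below, and of any CG1648 reads on the lectins, was not tested. In control flies CG17575 was highest at 2016 ± 122 normalized counts per kb (SD, n = 3), followed by lectin-46Ca at 1715 ± 66.3, CG9997 at 1624 ± 77.7, lectin-46Cb at 1365 ± 68.3, CG14061 at 1001 ± 107, CG30488 at 930 ± 65.8 and CG12558 at 331 ± 62.1. The ranges of libraries overlapped between lectin-46Ca and CG9997 and between CG14061 and CG30488, and were apart for the other neighbours in this order. In mutant flies CG9997, at 1180 ± 16.9 normalized counts per kb, stood below lectin-46Cb at 1265 ± 147, with overlapping ranges. CG14061 and CG30488 both stood at 659 normalized counts per kb in mutant flies. Summed over the 7 members, the normalized counts were 8569 ± 463 in control and 7161 ± 348 in mutant libraries (SD, n = 3 each), or 83.6% of control. In CPM the members' sum was 533 to 596 in control and 481 to 543 in mutant libraries, with overlap.

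Sex peptide and the seminal peptidases that work beside the network fell. Acp70A, which encodes sex peptide, had 4622, 5007 and 3583 normalized counts in control and 1825, 2314 and 2462 in mutant libraries. These groups did not overlap, with a gap of 1121 normalized counts, and the log2 change of Acp70A was -0.998 ± 0.14 (SE; adjusted p = 5.24e-04, limma). Seminase (Sems), a serine peptidase known to act early in the chain of cleavages of seminal proteins, changed by -0.67 ± 0.08 (log2, SE; adjusted p = 2.93e-04, limma). CG11864 (Semp1), a metallopeptidase that is cleaved in that chain, changed by -0.79 ± 0.14 (log2, SE; adjusted p = 2.71e-03, limma). The log2 ratio of CG9997 to Acp70A was higher in all mutant libraries, at -0.90 ± 0.25 against -1.44 ± 0.20 in control (SD, n = 3 each).

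Network genes known for their action in the female were also measured in these males. The sex peptide receptor gene SPR had 307 to 350 normalized counts in control and 299 to 334 in mutant libraries, and it did not pass the test (log2 change -0.04 ± 0.09, SE; adjusted p = 0.844, limma). Esp (0.21 ± 0.11) and CG5630, now hadley (hdly; 0.09 ± 0.07), did not pass either. CG3239, now fra mauro (frma), was the exception of the 4 genes, with 408, 356 and 355 normalized counts in control and 168, 161 and 185 in mutant libraries. It changed by -1.12 ± 0.10 (log2, SE; adjusted p = 3.10e-05, limma). These genes are also expressed outside the reproductive tract, and which tissue gave the signal in males was not tested.

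Regulators known from the accessory gland gave 0 calls among 6 genes in limma, where 2 had an unadjusted p under 0.05, and 1 call, dsx, in the authors' deposited table. Of all 13035 genes, 3476 had an unadjusted p under 0.05 in limma, and the authors' table called 9.04% of genes lower. The homeobox gene prd, needed for the gland to form, had 393 to 508 normalized counts in control and 363 to 405 in mutant libraries (log2 change -0.25 ± 0.10, SE; adjusted p = 0.156, limma). The secondary cell regulators Abd-B and dve had log2 changes of -0.03 ± 0.11 and -0.28 ± 0.13 (SE; adjusted p = 0.875 and 0.215, limma). The Hox gene abd-A and the noncoding gene msa, both of the bithorax complex, had log2 changes of -0.01 ± 0.09 and 0.12 ± 0.18. The sex determination gene dsx was lower in all mutant libraries, at 952 ± 184 against 1214 ± 62.3 normalized counts (SD, n = 3 each), and its log2 change was -0.37 ± 0.13 (SE; adjusted p = 8.22e-02, limma). Without mutant replicate 3 dsx passed (adjusted p = 4.16e-02, limma), and without mutant replicate 2 its log2 change was -0.20 (adjusted p = 0.161, limma). The log2 change of dve was -0.16 without control replicate 1 or without mutant replicate 2. With scaling to ribosomal protein genes prd, dve and dsx were called lower (adjusted p = 1.65e-02, 3.83e-02 and 1.89e-02, limma). That scaling called 2279 of all 13035 genes lower and shifted their median log2 change to -0.17. Most of these regulators are active in other tissues as well.

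Other products of the male tract moved with the members that fell. Of 21 Acp and Mst57D seminal protein genes, 20 were called lower and 0 higher, where 9.47% of all genes were called lower and 4.73% higher. The median log2 change of the 21 genes was -1.13, and Acp32CD (-0.11) was not called. Their summed level was 10109 to 12540 CPM in control and 5241 to 5375 CPM in mutant libraries. Acp53C14c (-1.92 ± 0.09), Acp26Aa (-1.38 ± 0.09) and Acp62F (-1.28 ± 0.09) had the smallest adjusted p, and Acp36DE (-1.45 ± 0.12) and Mst57Db (-1.44 ± 0.11) were the most abundant (log2 change, SE). All 6 ejaculatory duct and bulb genes fell, with a median of -1.10 and a summed level of 10002 to 11058 CPM in control and 5377 to 5780 CPM in mutant libraries. The number was 5 without control replicate 3 or without mutant replicate 3, where PebIII, a product of the ejaculatory bulb, was not called. None of the 7 members had a log2 change as low as these medians. The part of the amount of gland, duct or bulb tissue in the members' values was not tested.

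The median for testis and sperm genes was 0.17 (log2; -0.01 when ribosomal protein genes set the scaling and 0.10 without control replicate 1). In limma 0 of 22 measured were called, and 7 of them had an unadjusted p under 0.05, as did 3476 of all 13035 genes. With scaling to library size, 5 were called higher, where 1293 of all 13035 genes were called higher and their median log2 change was 0.09.

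CAP domain genes outside the network went both ways, with 5 of 23 called lower and 6 higher, and a median of 0.12. Of all genes, 9.47% were called lower and 4.73% higher. That median was -0.06 when ribosomal protein genes set the scaling, 0.07 without control replicate 1 and 0.0669 without mutant replicate 2. Ag5r2 (-1.34 ± 0.13), CG42564 (-0.51 ± 0.07) and CG34002 (-0.47 ± 0.09) fell, as did the most abundant, Ag5r (-0.34 ± 0.09). The close paralogs scpr-A, scpr-B and scpr-C rose by 0.37 ± 0.08, 0.39 ± 0.09 and 0.41 ± 0.09 (log2, SE), and as paralogs they may share reads. The number called lower was 3 without control replicate 2, the number higher was 3 without control replicate 1 or without mutant replicate 2, and 0 were called higher with scaling to ribosomal protein genes.

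**Figure D4:**
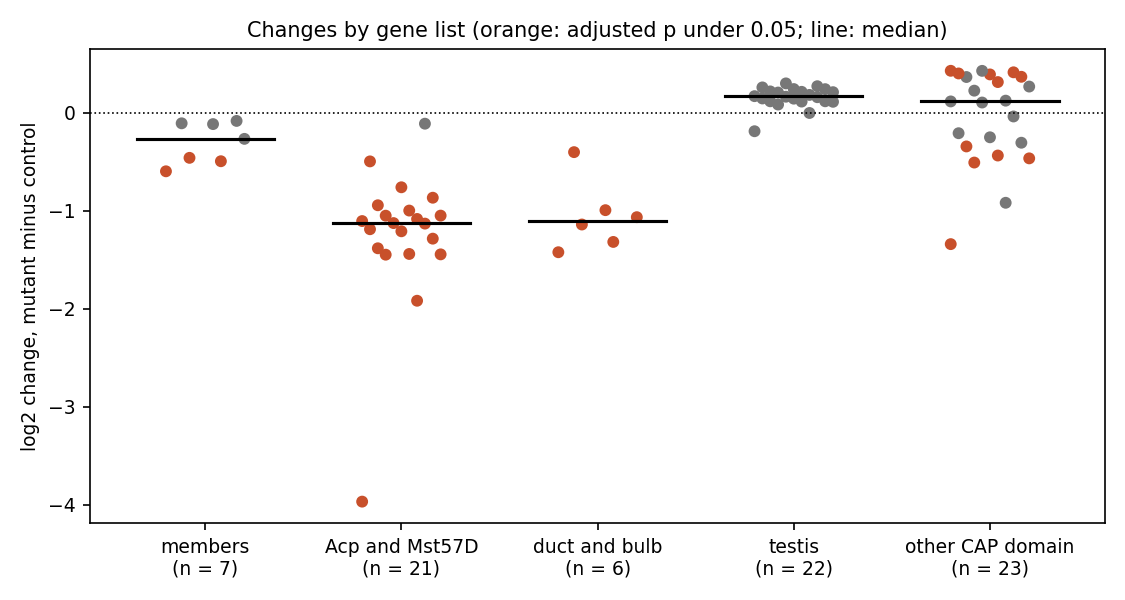
Log2 change of each measured gene of 5 lists, orange for an adjusted p under 0.05, with the list's median as a black line. The medians are -0.27 for the members, -1.13 for Acp and Mst57D genes, -1.10 for duct and bulb genes, 0.17 for testis genes and 0.12 for other CAP domain genes, the last 2 turning to -0.01 and -0.06 when ribosomal protein genes set the scaling.

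Within 5 kb of a member in the deposited coordinates, 10 other genes were measured. Of these 2 were called lower and 0 higher, where 9.47% of all genes were called lower. Near lectin-46Ca, CG34033 was lower in all mutant libraries, at 397 ± 52.5 against 291 ± 19.2 normalized counts (SD, n = 3 each), and its log2 change was -0.44 ± 0.11 (SE; adjusted p = 1.96e-02, limma). Beyond CG17575, the cytochrome P450 gene Cyp9h1 changed by -0.63 ± 0.11 (log2, SE; adjusted p = 3.47e-03, limma). The other 8 genes did not pass. They include CG30486, a further CAP domain gene 28 bases from CG30488, with a log2 change of -0.25 ± 0.16, and CG34295, 37 bases from CG12558, with -0.11 ± 0.23 (SE). For CG10000, near CG9997, the value was 0.54 ± 0.18 (log2, SE; adjusted p = 8.25e-02, limma), the highest of the uncalled genes. Their lowest value was -0.47 ± 0.77 (log2, SE) for Or49b, which had only 0 to 3 reads in a library.

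Among 5394 genes with a mean of at least 500 normalized counts, those with the profile over the 6 libraries nearest to the members' median profile were CG30456, CG34129, CG8952, dj-1beta and CG4577. Their Euclidean distances on the centred log2 scale were 0.11 to 0.18, small because these genes were picked as the nearest. The members themselves, which were not picked for nearness, lay 0.18 to 0.37 from their median profile, so the ranges cannot be compared. The log2 changes of these genes ranged from -0.36 to -0.25.

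The scaling of libraries bears on the members that were not called. With scaling to ribosomal protein genes, 2279 of all 13035 genes were called lower and 188 higher. This scaling shifted the median of all genes to -0.17, and 6 of 7 members were then called lower, all but lectin-46Ca. Relative to that median the change of CG17575 was -0.11 and that of CG12558 -0.27, as with the deposited scaling. With scaling to library size the sign of lectin-46Ca turned (0.0032), and the calls of CG9997, CG14061 and CG30488 stood under every scaling tried.

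**Figure D5:**
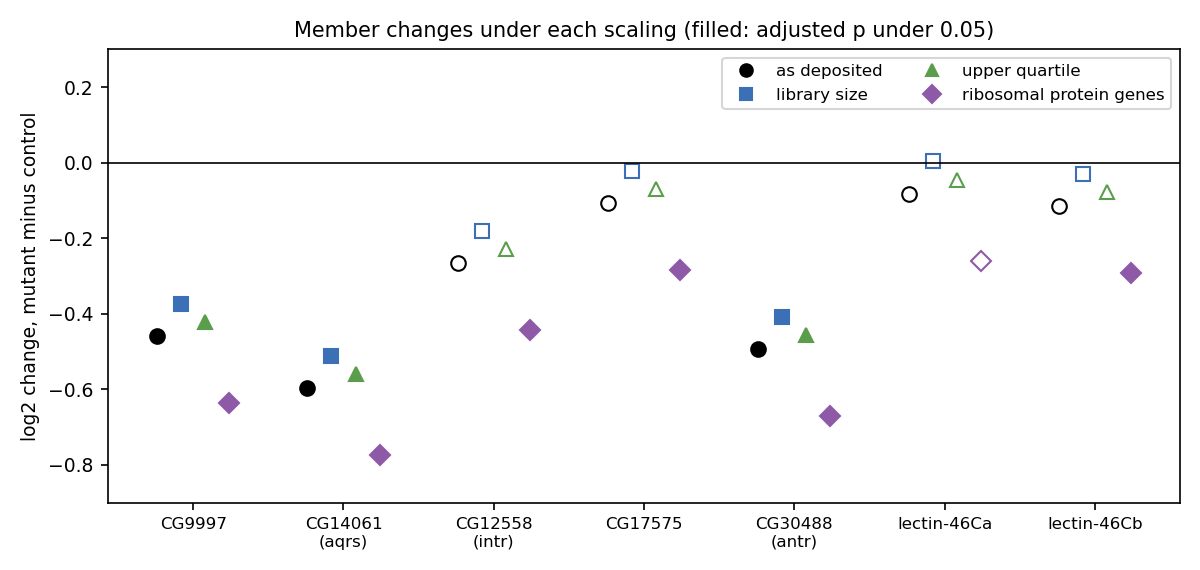
Log2 change of each member under the deposited scaling and 3 others, filled where the adjusted p is under 0.05. CG9997, CG14061 and CG30488 are filled under each scaling, and CG12558, CG17575 and lectin-46Cb with scaling to ribosomal protein genes alone.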

How the data were processed

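Poly(A)-selected, stranded RNA-seq libraries of whole male flies were made, per the labels' protocols. The submitters' processing notes name Novoalign, DESeq2 and the genome build dm3. How reads were counted, with which annotation and with or without strand, is not stated. The authors deposited normalized counts, a signal that is never negative, with their own comparison: per the file headers a log2 fold change, its standard error, a score (the Wald statistic), a p-value and its adjusted value. In each column all values were whole multiples of one step (tolerance 1e-06), which gave the reads per library. In 3 columns the step was too close to 1 for a count model to be allowed here.

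Changes were tested with limma 3.58.1 (R 4.3.3) on log2(normalized count + 1), with a group term, a trended variance, no filter and Benjamini-Hochberg adjustment over all 13035 genes at 0.05. The method was tested on simulated data, where it recovered 40 of 67 changes of 1.4-fold, and 7 of its 180 calls were false. A change of that size can thus be missed, and the simulated spread may differ from that of these libraries. Tables and figures used Python 3.11.15, pandas 2.3.3, numpy 2.4.6, scipy 1.17.1 and matplotlib 3.10.9. Coding lengths, strands and current names came from the BDGP6 annotation and a name table, and coordinates are the deposited ones. Within a group, pairs of libraries gave a chi-square of 7.35 to 14.1 per gene, where sampling alone gives about 1, so none was merged. The members and lists were chosen with earlier results of these data known. The text names all members, all genes of the partner, female-side and regulator lists, from the Acp and CAP domain lists the 3 genes with the smallest adjusted p per direction and the 2 most abundant, and the 5 genes nearest in profile. Genes within 5 kb of a member, and the ratios, were chosen after values were seen. Alternatives were 3 scalings, pseudocounts of 0.5 and 5, a filter on a mean of 10, a robust variance prior and leaving out each library.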

Additional observations from a re-analysis of the deposited data

How the results depend on the processing

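No paired analysis was possible because the labels give no pairing and the replicate numbers only name libraries. The calls of CG9997, CG14061 and CG30488 stood under all 13 alternatives, and without one library each the number of members called lower stayed at 3. Scaling to ribosomal protein genes gave 6 members called lower, with log2 changes of -0.28 for CG17575, -0.29 for lectin-46Cb and -0.44 for CG12558, and 2279 genes lower and 188 higher in all. It shifts all genes alike by construction. Scaling to library size turned lectin-46Ca to 0.0032 and gave 1293 genes higher. Without one library each, 926 to 1139 genes were called lower and 330 (without control replicate 3) to 563 higher, with 382 without mutant replicate 3. Other CAP domain genes ranged from 3 to 5 called lower and 3 to 5 higher without one library, and with ribosomal protein scaling 0 were higher. Testis genes called higher were 5 with library size, 2 with the upper quartile, 1 with a robust prior and 0 to 2 without one library. Genes near no change turned sign: SPR to 0.0499 with library size and 0.0019 with the upper quartile (-0.0824 to 0.0119 without one library), Abd-B to 0.0516 and 0.0036 (-0.13 to 0.0387) and abd-A to 0.0778 and 0.0299 (-0.0458 to 0.0224). With ribosomal protein scaling CG5630 turned to -0.0839 and msa to -0.0599 (msa -0.0731 to 0.22 without one library). Each scaling moves all genes nearly alike by construction, and the median of all genes was 0.09 with library size and 0.04 with the upper quartile. What caused the differences between control and mutant libraries was not tested. Counting error was largest for CG12558 among the members, at 5.79% per control library and 6.38% per mutant library.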
